A study of Mus musculus with 7 samples.

Results

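The genes described here are 4 adult globins and 2 other genes of maturing red cells, 6 of the 46603 Ensembl genes counted in the tumor RNA-seq. They are Hbb-bs and Hbb-bt for beta globin, Hba-a1 and Hba-a2 for alpha globin, Alas2 and Slc4a1, and each was chosen by its symbol in GENCODE release M21, where it has 1 Ensembl ID. The 7 libraries come from tumors of mouse embryonic fibroblasts (MEFs, the CRL-2752 line) in which nuclear myosin 1 (NM1), an isoform of the Myo1c gene, had been deleted with CRISPR/Cas9. In 3 libraries (KO) the injected cells lacked NM1, and in 4 libraries (KO+NM1) they were the same KO cells given NM1 again by a lentivirus with an HA and V5 tag, selected with neomycin and taken through single clones. All mice were female nude mice of 16 weeks, injected subcutaneously. The labels give 30 days after injection, while the paper's methods give a shorter follow-up. Nude mice lack a thymus and therefore mature T cells but make red cells. The animals were perfused with isotonic PBS before the tumors were taken, per the labels. A tumor of each kind was divided into 4 pieces that were homogenized separately, so the libraries are tumor pieces, and p-values measure the spread between pieces, which may hold no difference between mice.

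Hemoglobin is a tetramer of alpha and beta globin chains, each holding a heme, and it fills the red cell. Mouse red cells lose their nucleus but young ones (reticulocytes) still carry globin mRNA, which makes globin reads a common trace of blood in RNA from solid tissue. Alas2 is the erythroid form of 5-aminolevulinate synthase, the enzyme that starts heme synthesis, and Slc4a1 (band 3) is the anion exchanger of the red cell membrane, which also has a shorter form in the kidney. In bulk tissue, fewer cells of a type and less RNA per cell cannot be told apart, nor can RNA of the host mouse and of the injected cells.

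The beta globin genes lie on chromosome 7 of GRCm38, Hbb-bs (ENSMUSG00000052305) at chr7:103826534-103828096 and Hbb-bt (ENSMUSG00000073940) at chr7:103812524-103813996, both on the minus strand. The alpha globin genes lie on the plus strand of chromosome 11, Hba-a1 (ENSMUSG00000069919) at chr11:32283511-32284465 and Hba-a2 (ENSMUSG00000069917) at chr11:32296489-32297298. Slc4a1 (ENSMUSG00000006574) is on the same chromosome at chr11:102348824-102366203, on the minus strand, and Alas2 (ENSMUSG00000025270) is at chrX:150547375-150570638, on the plus strand. Each globin pair is nearly identical, and since this decides how well their reads can be told apart, the coding stretches around the only base that separates them are shown with that base in capitals. Over 429 coding bases Hba-a1 and Hba-a2 differ at 1 position, C381T, and over 444 coding bases Hbb-bs and Hbb-bt differ at 1 position, C417T, counted from 1 at the start codon with the base of Hba-a1 or Hbb-bs given before the position. Identity is 99.8% within each pair and 56.5% between Hba-a1 and Hbb-bs.
Hba-a1: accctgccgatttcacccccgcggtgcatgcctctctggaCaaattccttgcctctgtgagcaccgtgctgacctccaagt
Hba-a2: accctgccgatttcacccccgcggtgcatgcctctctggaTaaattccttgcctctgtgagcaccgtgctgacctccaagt
Hbb-bs: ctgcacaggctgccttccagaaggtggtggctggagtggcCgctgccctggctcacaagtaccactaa
Hbb-bt: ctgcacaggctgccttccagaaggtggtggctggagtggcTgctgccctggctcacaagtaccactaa
Of the 75-base windows in the annotated transcripts, 51.5% of those of Hbb-bs, 56.6% of Hbb-bt, 67.9% of Hba-a1 and 84.6% of Hba-a2 also occur in the partner gene, and 0 of those of Alas2 and Slc4a1 occur in another gene. The split of reads within each pair is therefore uncertain, and the sum of each pair is given beside its members. The reference genome is that of C57BL/6J, and BALB/c mice, the host strain in the methods, carry another haplotype of the beta globin genes, so the reads of Hbb-bs and Hbb-bt are those that aligned to the reference haplotype.

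Promoters are shown because the globins and Alas2 moved together between the tumors. Erythroid promoters are known for binding GATA1 at GATA motifs and KLF1 at CACCC motifs, and general factors at the CCAAT box and, near the start, at the TATAA box. A window of 250 bases before the RefSeq start (GRCm38.p6) was searched on both strands for these letters, with a GATA motif spelled AGATAA, or alternatively with its leading base changed, TGATAA. The table of promoters held 5 of the 6 genes, all but Slc4a1. The printed stretch of each is the longest run of that window outside the gene's annotated exons, with the motifs in capitals, at chr11:32296242-32296488 (plus strand) for Hba-a2, chr7:103827929-103828011 (minus strand) for Hbb-bs and chrX:150547167-150547374 (plus strand) for Alas2.
Hba-a2: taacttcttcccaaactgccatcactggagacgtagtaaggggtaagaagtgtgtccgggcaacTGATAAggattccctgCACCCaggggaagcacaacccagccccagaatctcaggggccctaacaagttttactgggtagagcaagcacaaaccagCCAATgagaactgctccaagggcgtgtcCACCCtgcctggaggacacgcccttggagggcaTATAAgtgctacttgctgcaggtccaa
Hbb-bs: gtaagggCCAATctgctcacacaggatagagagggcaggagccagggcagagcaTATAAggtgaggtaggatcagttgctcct
Alas2: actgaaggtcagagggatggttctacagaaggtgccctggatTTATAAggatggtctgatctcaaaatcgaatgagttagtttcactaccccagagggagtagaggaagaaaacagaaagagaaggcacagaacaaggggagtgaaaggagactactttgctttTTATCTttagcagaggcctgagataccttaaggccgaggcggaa
The alpha globin windows share a run of 247 of their 250 bases, so the Hba-a2 stretch stands for both. A GATA motif was found in the windows of Hbb-bs, Hba-a1, Hba-a2 and Alas2 but not Hbb-bt, against 16.6% of the 32851 promoters searched. CACCC was found in all 5, against 52%, and CCAAT in the 4 globins but not Alas2, against 33.8%. TATAA was found in all 5, against 22.8%, and in the 4 globins a copy ended 23 to 26 bases before the start, whereas in Alas2 the copies on the 2 strands overlapped each other at 203 to 208 bases before the start. The GATA and CACCC motifs of Hbb-bs and the CACCC motifs of Alas2 lie in the searched windows but outside the printed stretches. All of these are matches of letters and not measured binding sites.

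Total counts were 24088309 to 28326568 per library, and 3 counts, taken as the floor of detection, corresponded to 0.0989 to 0.148 CPM (counts per 1000000 counts, scaled here by the trimmed mean of M values, TMM). The gene of the targeted isoform, Myo1c, had 302 ± 12.1 CPM (SD, n = 3) in KO and 408 ± 23.0 CPM (SD, n = 4) in KO+NM1, but its counts do not separate NM1 from the other isoforms. Mitochondrially encoded genes took 1.81 to 2.14% of counts in KO and 5.11 to 18.5% in KO+NM1. Log2 CPM profiles correlated at 0.966 to 0.977 among KO libraries, at 0.977 to 0.986 among KO+NM1 02, 03 and 04, and at 0.855 to 0.861 between those and KO+NM1 01, which stands apart. The globin sum, the fold changes of the 4 globins and Alas2, the makeup of their reads and the counts over gene lists are given with and without it.

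Reads of the adult globins were detected in every library and were more abundant in every KO+NM1 library than in any KO library. The 4 globins together took 0.00198 to 0.00308% of the counts in KO and 0.0227 to 0.0816% in KO+NM1. Their summed level was 18.3, 23.3 and 28.8 CPM in KO 01 to 03 and 211, 641, 673 and 807 CPM in KO+NM1 01 to 04. The mean was 23.4 ± 5.23 CPM (SD, n = 3) against 583 ± 258 CPM (SD, n = 4), a 24.9-fold difference, and the lowest KO+NM1 library stood 7.35-fold above the highest KO library. Without KO+NM1 01 the mean of the other 3 was 707 ± 87.8 CPM and the fold 30.2.

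**Figure D1:**
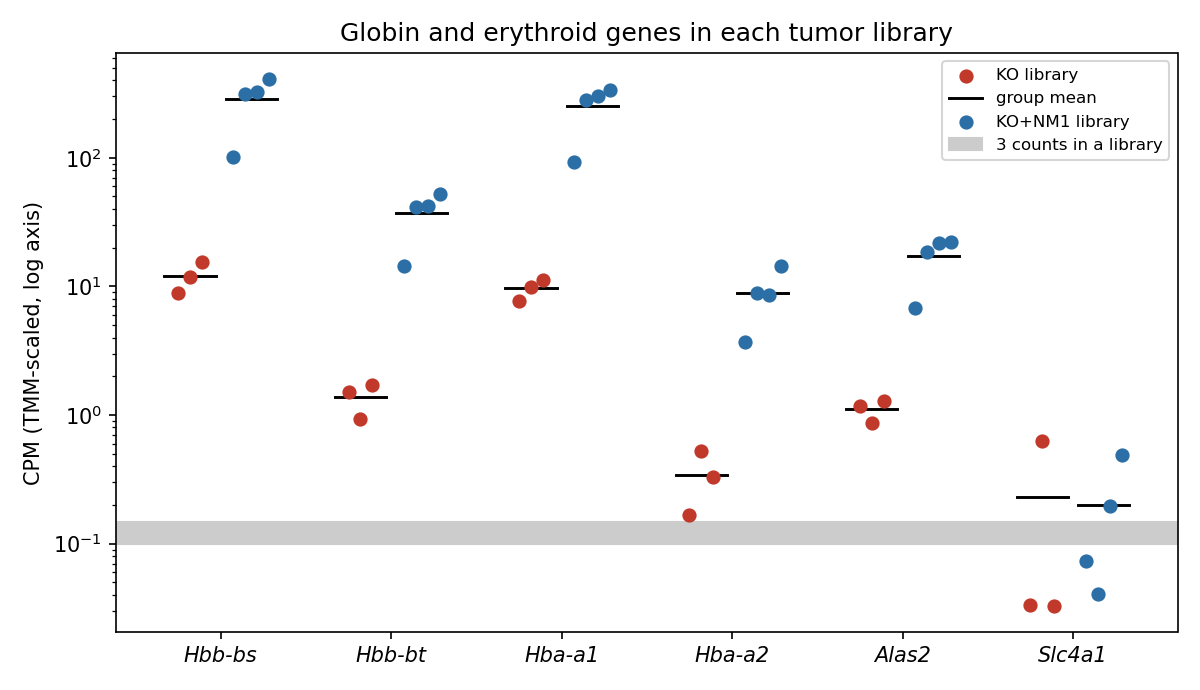
CPM on a log axis (TMM-scaled) for each of the 6 genes, with 1 point per library, KO (3) and KO+NM1 (4), lines at the group means and a grey band at 3 counts. The 4 globins and Alas2 do not overlap between the groups, with KO+NM1 01 the lowest of its group for each, whereas Slc4a1 is below 1 CPM in every library and overlaps.

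Hbb-bs, the more abundant beta globin gene here, had 8.89, 11.8 and 15.5 CPM in KO 01 to 03 and 101, 311, 322 and 407 CPM in KO+NM1 01 to 04. The counts behind these were 267 to 469 in KO and 2766 to 9910 in KO+NM1, so each library was far above the floor. The groups did not overlap, and within KO+NM1 the highest library was 4.04-fold above the lowest, against 1.74-fold within KO. The log2 fold change, KO minus KO+NM1, was -4.56 (SE 0.45, 95% interval -5.62 to -3.50), with an adjusted p of 0.000971 from edgeR's quasi-likelihood test over 16887 genes.

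Hbb-bt, the near-identical neighbour of Hbb-bs, had 1.50, 0.937 and 1.71 CPM in KO and 14.3, 41.2, 42.3 and 52.1 CPM in KO+NM1 01 to 04. It lay below Hbb-bs in each library and was again lower in all KO libraries, with counts of 27 to 52 there. Its log2 fold change was -4.75 (SE 0.45, edgeR adjusted p = 0.000829). With the counts of the pair summed, beta globin had a log2 fold change of -4.58 (SE 0.44, edgeR adjusted p = 0.000929), so the call does not rest on how reads were split within the pair.

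Hba-a1, which carried most of the alpha globin counts, had 7.75, 9.96 and 11.2 CPM in KO and 92.7, 281, 299.5 and 334 CPM in KO+NM1 01 to 04. Its libraries did not overlap, and KO+NM1 02, 03 and 04 were close to each other while 01 was lower. The log2 fold change was -4.70 (SE 0.42, edgeR adjusted p = 0.000723). Hba-a2, the near-identical neighbour, was counted far less often, at 0.166, 0.521 and 0.330 CPM in KO and 3.71, 8.90, 8.58 and 14.3 CPM in KO+NM1 01 to 04. Its KO values rest on only 5, 15 and 10 counts, yet the groups stayed apart, with a log2 fold change of -4.69 (SE 0.55, edgeR adjusted p = 0.00144). Summed, the alpha pair had a log2 fold change of -4.70 (SE 0.42, edgeR adjusted p = 0.000726).

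Alas2, the heme-starting enzyme of erythroid cells, had 1.16, 0.868 and 1.29 CPM in KO and 6.81, 18.4, 21.7 and 22.2 CPM in KO+NM1 01 to 04. The order of the KO+NM1 libraries is that of the summed globins, and KO+NM1 01 was again the lowest. The means were 1.11 ± 0.215 (SD, n = 3) and 17.3 ± 7.18 (SD, n = 4), a 15.6-fold difference, and the log2 fold change was -3.96 (SE 0.43, edgeR adjusted p = 0.00111). Alas2 lies wholly within the span of Apex2 on the opposite strand, and 311 bases, 12.9% of its exonic 2403, are also exon of Apex2. Apex2, a DNA repair nuclease, went the other way, with 39.5, 23.2 and 25.8 CPM in KO and 13.5, 17.6, 20.4 and 13.5 CPM in KO+NM1 01 to 04. Whether counting used the strand is not given in the sources used here, and the part of Apex2 reads in the Alas2 counts was not tested.

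Slc4a1, the band 3 anion exchanger, had 1 to 4 counts in 5 of the 7 libraries, too few to give it a direction. It had 1, 18 and 1 counts in KO 01 to 03 and 2, 1, 4 and 12 counts in KO+NM1 01 to 04, or 0.0333, 0.625 and 0.0330 CPM against 0.0728, 0.0406, 0.197 and 0.493 CPM. KO 01, KO 03 and KO+NM1 02 each had 1 count, so the lower CPM of these KO libraries beside KO+NM1 02 comes from library scaling alone. KO 02 was the highest of the 7 libraries, and the groups overlapped. A 2-sided exact permutation test of the 7 libraries gave p = 0.771. The gene did not pass the filter on low counts and was not tested by edgeR. With every gene of at least 1 count kept, its log2 fold change was 0.09 (SE 1.24, edgeR adjusted p = 0.979), and -2.52 (SE 1.34, edgeR adjusted p = 0.218) without KO 02, a setting chosen after seeing the data. Both errors leave changes of several fold undetectable at this depth.

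Of the 5 genes that passed the filter, all 5 were lower in KO at an adjusted p under 0.05 and at least a 2-fold change, against 20.3% of the 16887 genes tested. By the adjusted p alone the background is 24.5%. Hba-a2, with 5 to 15 counts in KO, passed the filter only through KO+NM1, where it is high. With at least 10 counts asked of every library it was not tested, and 4 genes were called lower. All 5 also had no overlap between the groups with KO the lower, against 26.4%, and 57% of all genes tested had no overlap in either direction. The 2-sided exact permutation test gave p = 0.0286 for each of the 5, the smallest value that the 35 splits of 3 against 4 libraries can give. Their median log2 fold change was -4.69, against -0.0017 over all genes tested, and between 3.12 and 4.68% of all genes tested had a lower value. Without KO+NM1 01 the log2 fold changes were -4.97 for Hbb-bs, -5.15 for Hbb-bt, -5.11 for Hba-a1, -5.08 for Hba-a2 and -4.35 for Alas2.

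**Figure D2:**
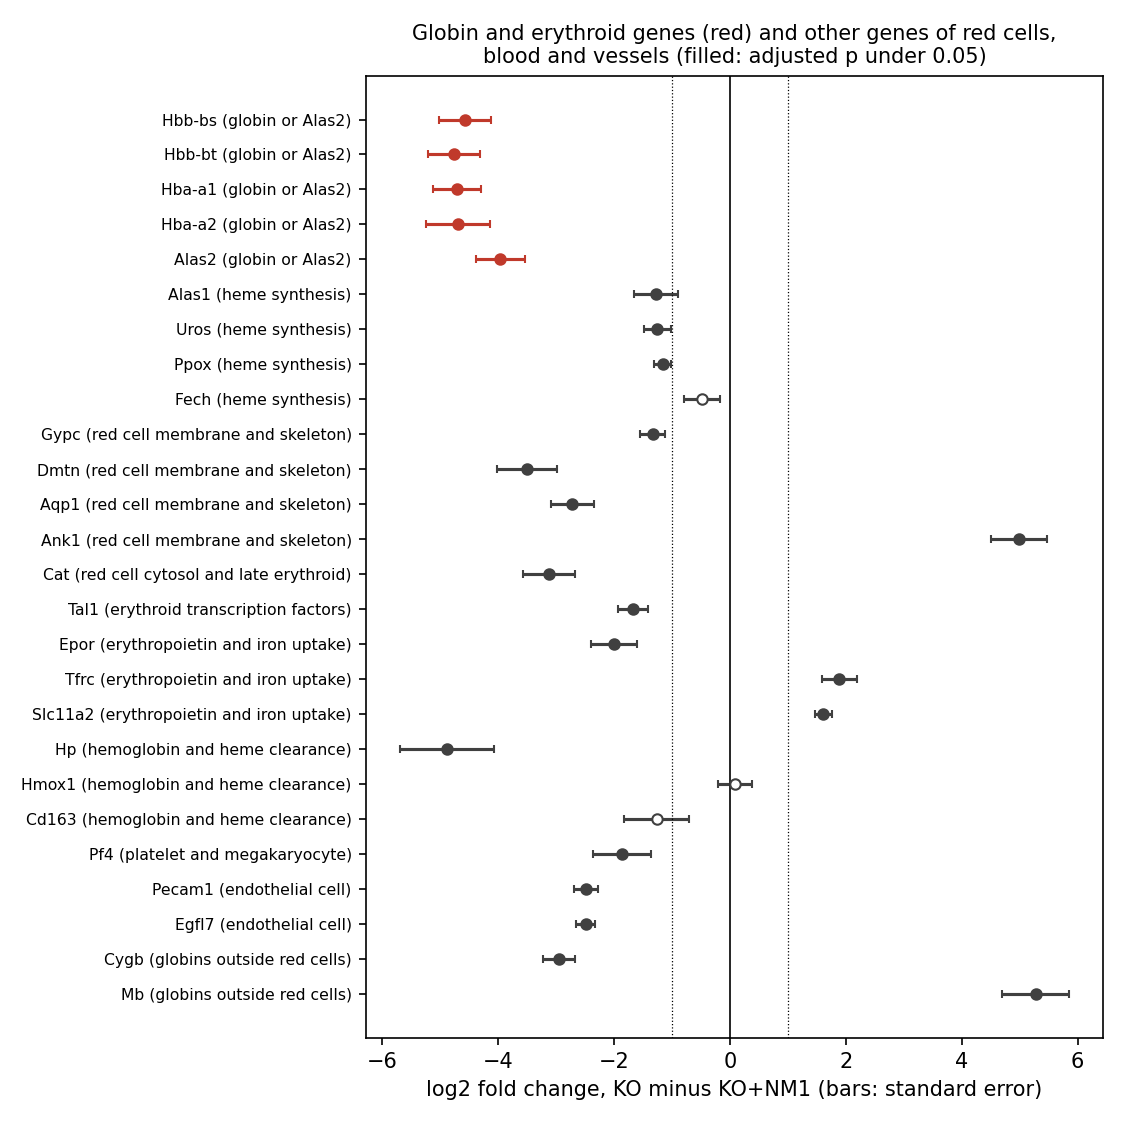
Log2 fold change (KO minus KO+NM1) from edgeR with its standard error (bars) for the 4 globins and Alas2 (red) and for other genes of red cells, blood and vessels (dark grey), filled where the adjusted p was under 0.05, with dotted lines at a 2-fold change. The red points lie between -4.75 for Hbb-bt and -3.96 for Alas2, while Ank1, a gene of the red cell skeleton, lies above 0.

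Values per kilobase of exon adjust for gene length but not for reads shared within a globin pair. How such reads were counted is not given in the sources used here, and the order between genes could depend on it. As counted, the order in KO+NM1 was Hbb-bs (371 ± 169.5 CPM per kb, SD, n = 4), Hba-a1 (310 ± 133), Hbb-bt (53.3 ± 23.1), Hba-a2 (13.3 ± 6.48), Alas2 (7.19 ± 2.99) and Slc4a1 (0.0411 ± 0.0421). The ranges of Hbb-bs and Hba-a1 overlapped over the libraries, as did those of Hba-a2 and Alas2, but genes measured in the same libraries vary together. Within each KO+NM1 library Hbb-bs was 1.14 to 1.29 times Hba-a1, and Hba-a2 was 1.42 to 2.32 times Alas2. In KO the order of the means was the same, from 15.7 ± 4.29 CPM per kb (SD, n = 3) for Hbb-bs and 11.9 ± 2.17 for Hba-a1 through 1.97 ± 0.571 for Hbb-bt, 0.508 ± 0.266 for Hba-a2 and 0.460 ± 0.0896 for Alas2 to 0.0471 ± 0.0698 for Slc4a1. Within each KO library Hbb-bs was again above Hba-a1, by 1.21 to 1.45 times, whereas Hba-a2 was above Alas2 in 1 of 3, with ratios of 0.515 to 2.16, so the order of these last genes was not the same in every KO library.

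The makeup of the globin reads was much alike in the tumors although their amount was not. The alpha genes gave 43.3, 45.1 and 40.3% of the globin counts in KO 01 to 03 and 45.6, 45.1, 45.8 and 43.1% in KO+NM1 01 to 04. The groups overlapped, with means of 42.9 ± 2.44% (SD, n = 3) and 44.9 ± 1.23% (SD, n = 4), and the exact binomial interval, which covers counting error only, was 37.0 to 43.6% in KO 03, the lowest library. Hbb-bt gave 14.4, 7.34 and 9.98% of the beta globin counts in KO and 11.4 to 12.4% in KO+NM1. Hba-a2 gave 2.10, 4.97 and 2.85% of the alpha globin counts in KO and 2.79 to 4.11% in KO+NM1. The wider range in KO goes with small counts there, for example 5 of 238 in KO 01 (95% interval 0.686 to 4.83%). Without KO+NM1 01 the alpha share was 44.7 ± 1.39% (SD, n = 3) in KO+NM1.

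Alas2 relative to the globins differed in its range. It had 63.6, 37.3 and 44.7 counts per 1000 globin counts in KO 01 to 03 and 32.2, 28.6, 32.3 and 27.5 in KO+NM1 01 to 04. The means were 48.6 ± 13.6 (SD, n = 3) and 30.2 ± 2.44 (SD, n = 4) and no KO library overlapped with KO+NM1, although the exact Poisson counting interval of KO 02, 24.1 to 55.1, covers the KO+NM1 values. Without KO+NM1 01 the KO+NM1 ratio was 29.5 ± 2.48 (SD, n = 3). Slc4a1 had 1.82, 26.9 and 1.15 counts per 1000 globin counts in KO and 0.0633 to 0.611 in KO+NM1, on counts of 1 to 18.

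**Figure D3:**
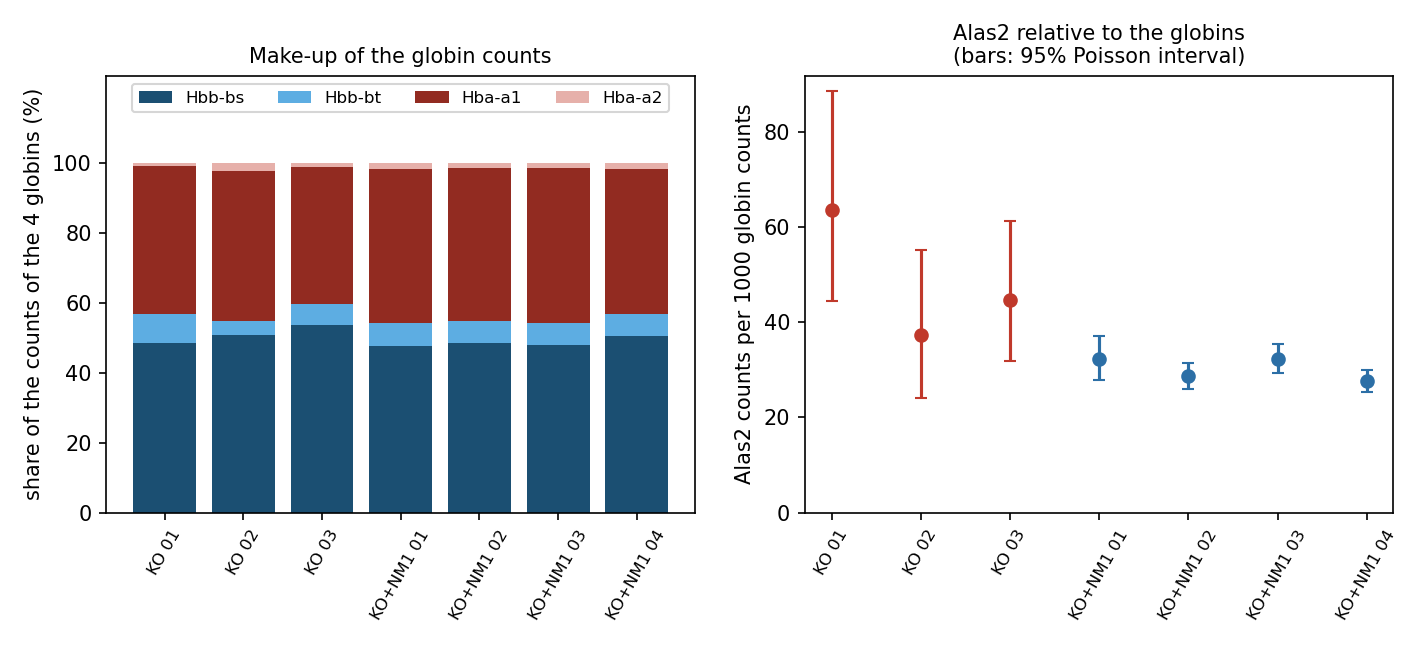
Share of each of the 4 globins in the summed globin counts (percent, bars starting at 0) and Alas2 counts per 1000 globin counts with 95% exact Poisson intervals (bars), for each of the 7 libraries. The shares are similar in KO and KO+NM1, with the alpha genes between 40.3 and 45.8%, and the Alas2 ratio is 37.3 to 63.6 in KO and 27.5 to 32.3 in KO+NM1.

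Embryonic globins, and the theta globins Hbq1a and Hbq1b, were at or near 0. Hbb-y, Hbb-bh1, Hbb-bh2 and Hbq1a had 0 counts in all 7 libraries, and Hba-x and Hbq1b had 1 count each, both in KO+NM1 04. Globins of other tissues moved in opposite directions. Mb, the oxygen-binding myoglobin of muscle, was higher in KO (67.1 ± 26.7 against 1.74 ± 1.21 CPM, log2 fold change 5.27, edgeR adjusted p = 0.00106), and Cygb, the cytoglobin of fibroblast-like cells, was lower (19.1 ± 3.06 against 147 ± 44.2 CPM, -2.95, edgeR adjusted p = 0.000617).

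The other genes of red cells, listed beside the globins, did not move as one. Of the 16 genes of the membrane and its skeleton, 11 were tested, 4 were higher in KO and 3 lower, with a median log2 fold change of 0.82. Higher genes included the skeleton genes Ank1 (4.99, edgeR adjusted p = 0.000685) and Add2 (44, 139 and 91 counts in KO and 0 to 2 in KO+NM1, too few there for a fold), which are also expressed outside red cells. Lower genes were the water channel Aqp1 (-2.71, edgeR adjusted p = 0.00209), which endothelium also expresses, the membrane protein Gypc (-1.33, edgeR adjusted p = 0.00299) and the skeleton gene Dmtn (-3.50, edgeR adjusted p = 0.00305). Against these calls, and those of the lists that follow, stand the backgrounds of 17.1% of all genes tested called higher in KO and 20.3% called lower. Without KO+NM1 01, 5 of the 11 were higher and 3 lower, with backgrounds of 21.7% and 25.1%. Rhag, Kel and Epb42, which are characteristic of red cells, had at most 1 count in any library. Rhd, of the same list, was among the 4 genes called higher in KO (edgeR adjusted p = 0.00834), opposite to the globins. It had 31 to 108 counts in KO and 0 to 8 in KO+NM1, and passed the filter only through KO.

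Of the 12 genes of the red cell cytosol and late maturation, 11 were found (Ahsp was not matched) and 6 tested, with 0 higher and 2 lower in KO (20.3% of all genes tested were lower) and a median of -1.21. Leaving out KO+NM1 01, 3 of 6 were lower. Cat, the catalase that clears peroxide, was among those lower (-3.11, edgeR adjusted p = 0.00256). Car1, the carbonic anhydrase of red cells, had 0 counts in the 3 KO libraries and 2, 17, 6 and 14 in KO+NM1 01 to 04. It did not pass the filter and was not tested by edgeR. The KO+NM1 mean was 4.05 times the CPM of 3 counts, the floor, in KO, but KO+NM1 01 was itself below 3 counts. Of 9 erythroid transcription factors, 5 were tested and Tal1, which endothelium also uses, was the gene called lower (-1.67, edgeR adjusted p = 0.00243), also without KO+NM1 01. The list median was -0.96 with all libraries and -0.39 without KO+NM1 01. GATA1 and KLF1, which drive the globin genes, were barely detected, with 5 counts of Gata1 in each KO library and 1 to 8 in KO+NM1, and 1 to 4 counts of Klf1 in KO and 1 to 9 in KO+NM1.

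Heme synthesis other than Alas2 is shared by all cells. All 8 genes were tested, 0 were higher in KO and 4 lower, against 17.1% and 20.3% of all genes tested, with a median of -0.99. The number lower was 5 without KO+NM1 01, against 25.1%. Ppox (-1.16, edgeR adjusted p = 0.00132) and Uros (-1.25, edgeR adjusted p = 0.00498) were lower with no overlap, and Alas1 and Alad were lower with groups that overlapped. The summed list had 325 to 350 CPM in KO, 371 CPM in KO+NM1 01 and 599 to 818 CPM in KO+NM1 02 to 04. Of 6 genes of erythropoietin and iron uptake, 5 were tested, 2 were higher and 2 lower, and the median was -1.04, while without KO+NM1 01 2 were higher and 3 lower. The iron importer Slc11a2 (1.62, edgeR adjusted p = 0.000517) and the transferrin receptor Tfrc (1.89, edgeR adjusted p = 0.00253) were higher in KO, while transferrin, Trf (-3.67, edgeR adjusted p = 0.00151), and the erythropoietin receptor Epor (2.65 ± 0.693 against 10.6 ± 4.51 CPM, edgeR adjusted p = 0.00734) were lower. Epo itself had 0 counts in every library.

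Of 12 genes that clear hemoglobin and heme, all tested, 0 were higher and 3 lower in KO, a share near the 20.3% of all genes tested, with a median of -0.75. With KO+NM1 01 left out, 5 were lower, against 25.1%, and Cd163 was then among them (-1.71, edgeR adjusted p = 0.00138). Haptoglobin, Hp, which binds free hemoglobin and is also made by fat cells, was lower (10.1 ± 9.69 against 299 ± 192 CPM, -4.88, edgeR adjusted p = 0.00639), as was the heme transporter Slc48a1 (-1.03, edgeR adjusted p = 0.0287). Heme oxygenase Hmox1 had 37.3 ± 7.45 CPM in KO and 35.0 ± 11.9 CPM in KO+NM1 (0.09, edgeR adjusted p = 0.814), and the scavenger receptor Cd163 of macrophages had 11.2 ± 3.35 and 26.9 ± 15.3 CPM (-1.26, edgeR adjusted p = 0.111).

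The platelet and megakaryocyte list summed to 14.9 to 19.9 CPM in KO and 38.2 to 61.2 CPM in KO+NM1, with 5 of 10 genes tested, 2 of them lower in KO, against 20.3% of all genes tested, and a median of -1.29. The platelet chemokines Ppbp (0.0573 ± 0.0725 against 0.844 ± 0.291 CPM, -3.79, edgeR adjusted p = 0.00862) and Pf4 (7.34 ± 2.13 against 26.7 ± 13.2 CPM, -1.86, edgeR adjusted p = 0.0237) were those lower, the Pf4 groups overlapping. Ppbp, with 0 to 4 counts in KO, passed the filter only through KO+NM1, and Gp6 had 0 counts throughout. The neutrophil list had 6 of 10 genes tested and 2 lower in KO, again against 20.3%. They were Elane, which with 0 to 1 counts in KO and 12 to 38 in KO+NM1 also passed the filter only through KO+NM1, and Ltf, which is also a milk protein and dominates the sum of the list, 1.30 to 6.11 CPM in KO and 230.3 to 1592 CPM in KO+NM1. S100a8, of neutrophils and monocytes, had 0.233, 2.36 and 0.330 CPM in KO and 10.0, 1.91, 1.92 and 1.07 CPM in KO+NM1 01 to 04 (-1.94, edgeR adjusted p = 0.191). KO+NM1 01 was the highest library for it, as for S100a9 (22.5 CPM against at most 3.75 in the other 6) and Cxcr2 (36.2 CPM against at most 0.833), and without it S100a8 had a log2 fold change of -0.87 (edgeR adjusted p = 0.379). Without that library 2 genes of 5 tested were lower in each of the platelet and neutrophil lists. Ly6g had 0 counts in KO and at most 2 in KO+NM1.

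All 10 endothelial genes were tested and all 10 were lower in KO, with and without KO+NM1 01, against 20.3% of all genes tested, with a median of -2.64. They included Egfl7 (-2.49, edgeR adjusted p = 0.000242), Ramp2 (-2.82, edgeR adjusted p = 0.000338) and Pecam1 (63.1 ± 3.53 against 351 ± 86.4 CPM, -2.48, edgeR adjusted p = 0.000446). The summed list had 244 to 280 CPM in KO and 1333 to 1978 CPM in KO+NM1, and KO+NM1 01, the lowest for the globins, was lowest here too. The globins differed by more than the vessel genes. They had 74.9, 87.6 and 103 CPM per 1000 CPM of the endothelial list in KO 01 to 03 and 159, 324, 371 and 544 in KO+NM1 01 to 04, which do not overlap. Per 1000 CPM of the platelet list the summed globins had 1225 to 1444 CPM in KO and 4593 to 17620 CPM in KO+NM1, and 13182 to 17620 CPM without KO+NM1 01. The neutrophil list went the other way, with 3807 to 16769 CPM of the summed globins per 1000 CPM of the list in KO and 507 to 1062 CPM in KO+NM1, where Ltf makes up most of the list's sum. With Ltf left out, a choice made after seeing the data, the values were 3988 to 19378 CPM in KO, 2544 CPM in KO+NM1 01 and 89724 to 213630 CPM in KO+NM1 02 to 04. The part of blood left in the vessels in the globin difference was not tested.

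**Figure D4:**
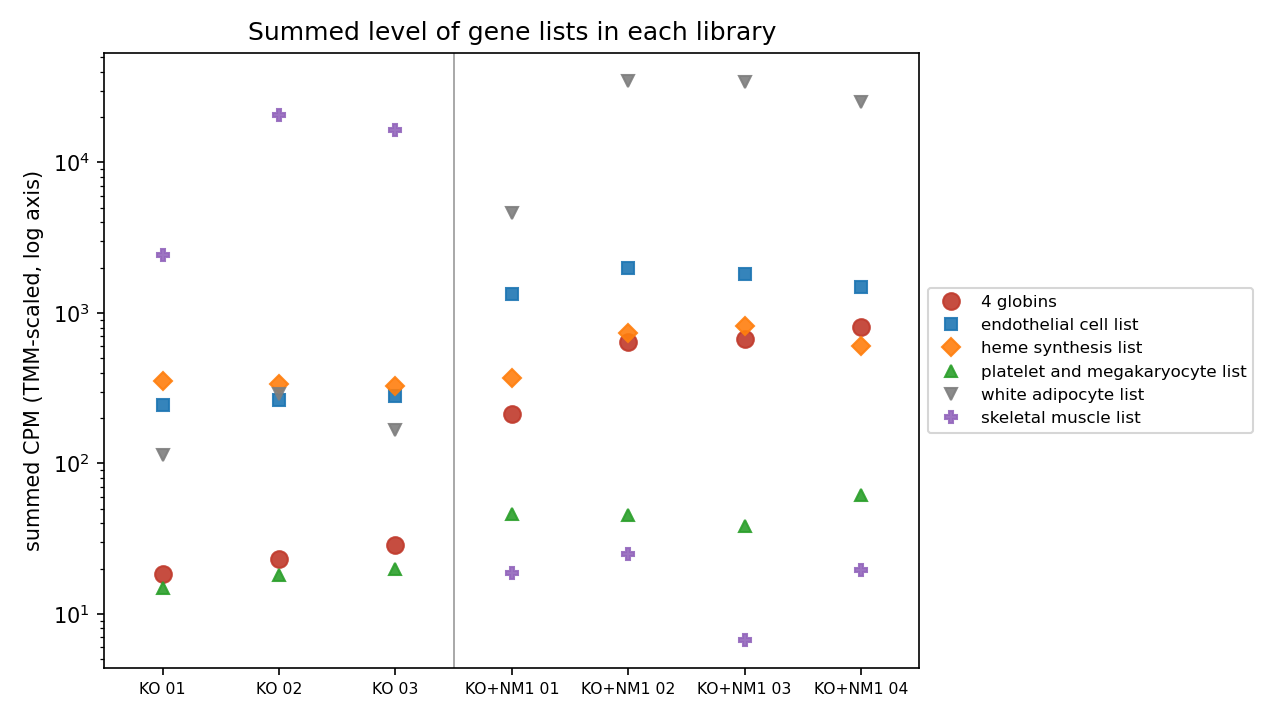
Summed CPM (TMM-scaled, log axis) of the 4 globins and of 5 gene lists in each library, with 1 point per list and library. The globins, endothelial, platelet and white adipocyte points are higher in every KO+NM1 library than in any KO library, and the skeletal muscle points are lower.

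Tissue markers also moved with the groups. White adipocyte genes were lower in KO in 8 of 8 tested (median -8.40), with 114 to 291 CPM for the summed list in KO and 4635, 34799, 34154 and 25375 CPM in KO+NM1 01 to 04, where KO+NM1 01 was lowest as it was for the globins. Examples were Fabp4 (-7.82, edgeR adjusted p = 0.00126) and Lpl (-5.55, edgeR adjusted p = 0.00163). Lep and Plin1, of the same list, passed the filter only through KO+NM1. Skeletal muscle genes were higher in KO in 8 of 8 tested (median 10.20). Among them Ckm, Pvalb and Myh4 had at most 2 counts in any KO+NM1 library and passed the filter only through KO. The summed muscle list had 2415 to 20605 CPM in KO and 6.71 to 24.9 CPM in KO+NM1. Of 8 fibroblast genes tested, 1 was higher (Vim, 1.09, edgeR adjusted p = 0.00502) and 3 lower, among them Dcn (-2.72, edgeR adjusted p = 0.00544) and Pdgfra (-1.47, edgeR adjusted p = 0.0155), with a median of -0.12. The labels give tumors of fibroblasts, and the fibroblast list summed to 9463 to 15233 CPM in KO and 3785 to 13995 CPM in KO+NM1. The counts of adipocyte, muscle and fibroblast genes called in each direction were the same without KO+NM1 01, although for the fibroblast list the gene called higher was then Col1a1 and not Vim. The part of these tissue differences in the globin difference was not tested.

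To describe which genes had a pattern most like the globins, the log2 CPM of each of 15121 genes with a mean of at least 1 CPM was centred over the 7 libraries and its root mean square distance to the summed globins taken. Outside the listed genes the 6 closest were Tbx3 (0.123 log2 units), Ptprz1 (0.123), Lix1 (0.160), Rergl (0.193), Irx3 (0.208) and Mme (0.226). In KO, Ptprz1 had 0.133 to 0.198 CPM, Lix1 0.0333 to 0.132 CPM and Rergl 0 to 0.0347 CPM, near or below the floor. Ptprz1, Lix1 and Rergl reached a mean of 1 CPM only through KO+NM1, and their distances depend on the small count added before taking logs. Tbx3, a T-box transcription factor, had 1.46, 2.15 and 2.47 CPM in KO and 21.9, 69.6, 62.5 and 81.9 CPM in KO+NM1 01 to 04. Hbb-bt lay at 0.267 from the summed globins with 12 genes closer, Hba-a2 at 0.329 with 33 closer, Alas2 at 0.426 with 88 closer and Slc4a1 at 2.38 with 7333 closer. Lpl at 0.528 and Trf at 0.562 were the closest of the listed genes, and Cldn5, an endothelial tight junction gene, was at 0.739. Hbb-bs and Hba-a1 make up most of the sum they are compared with, so their distances are not given.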

How the data were processed

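RNA-seq counts of 7 tumor pieces (3 KO, 4 KO+NM1) were used. The deposited values are raw read counts per Ensembl gene, made by the authors with Trimmomatic 0.36, HISAT2 2.0.4 on GRCm38, SAMtools 0.1.19 and HTSeq-count (versions per the submitters' processing notes). The annotation release, the strand option and the treatment of reads that fit several genes are not given in the sources used here. Of 46603 genes, 46005 received a GENCODE M21 symbol. Genes were filtered by filterByExpr (minimum count 10), scaled by TMM and compared, KO minus KO+NM1, by the quasi-likelihood test of edgeR 4.0.16 in R 4.3.3, with Benjamini-Hochberg adjustment over 16887 genes. A gene was called at an adjusted p under 0.05 and at least a 2-fold change, the thresholds of the methods. Lists are described by counts and medians, without a set test. The genes and lists were chosen with earlier results of these data known. Named genes were the 6 genes in full, the 2 genes of lowest adjusted p in each direction among those called in each list, a set of defining genes (Klf1, Gata1, Ahsp, Car1, Epor, Tfrc, Hmox1, Cd163, Hp, Pf4, S100a8, Pecam1, Mb and Cygb) and the 6 genes most like the summed globins. Some genes under this rule are not reported here, and other genes were named after their values were seen. Tested on simulated data of 16887 genes for the same comparison, the steps called 6%, 54%, 93.75% and 96% of genes changed by a log2 fold of 1, 2, 3 and 4, with 0.806% of 124 calls on unchanged genes. Alternatives were other scalings and filters, DESeq2 1.42.0, limma 3.58.1 voom, glmTreat, the replicate number as a block and each library left out. The planned protein comparison was made on coding sequence instead.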

Additional observations from a re-analysis of the deposited data

Results flagged for a closer look

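In the 4 KO+NM1 libraries, 4 of 29 values tested had a lowest or highest library whose gap to the next, divided by the range, was above Dixon's critical value of 0.829 for 4 samples, a limit that chance passes in about 1 in 20 groups. The ratio was 0.865 for log2 CPM of Hba-a1, 0.839 for Alas2 and 0.843 for the summed white adipocyte list, and KO+NM1 01 was the low library in each. Hba-a1 had 92.7 CPM there and 281 to 334 CPM in the other 3 libraries, and Alas2 had 6.81 against 18.4 to 22.2 CPM. The adipocyte list summed to 4635 CPM there and to 25375 to 34799 CPM in the other 3. For the summed embryonic and theta globins the ratio was 1, from 2 counts in KO+NM1 04 and 0 in the others. The globins and Alas2 were lower in KO with and without KO+NM1 01.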

How the results depend on the processing

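Hbb-bs, Hbb-bt and Hba-a1 under 19 alternatives, and Hba-a2 and Alas2 under the 18 that tested them, kept their direction and an adjusted p under 0.05. The log2 fold changes ranged from -4.97 to -4.20 for Hbb-bs, -5.15 to -4.44 for Hbb-bt, -5.11 to -4.38 for Hba-a1, -5.25 to -4.38 for Hba-a2 and -4.35 to -3.68 for Alas2, and the highest adjusted p was 0.0154, for Alas2 with the replicate block. Hba-a2 was filtered out where every library needed 10 counts, leaving 4 genes called lower. Of the other genes of red cells and blood, with Mb and Cygb counted among them, 20 were lower and 7 higher in KO. These are counts and not shares, and the number tested is given list by list above. Of all genes tested, 20.3% were called lower and 17.1% higher. Under edgeR's glmTreat against 2-fold, which by construction asks for more than a 2-fold change, 11 of the red cell and blood genes were lower. Leaving out each library in turn gave 15 to 25 of them lower, while 2811 to 4172 of all genes tested were lower. Both upper values came without KO+NM1 01. Over all genes 2882 were higher and 3424 lower, and 1707 and 2074 under glmTreat. Library size alone moved the median of all genes to 0.17, limma voom to 0.12 and upper-quartile factors to -0.16, small beside the globin changes. Replicate numbers did not pair the libraries (same-number correlations of deviations 0.0802, 0.102 and -0.0165). With the replicate block the globins and Alas2 stayed lower, Hbb-bs at -4.20 with an adjusted p of 0.00954, and over all genes 2437 were higher and 2493 lower. Low counts limit Slc4a1 and Car1, and the pieces limit what the spread covers.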
